A study of Mus musculus with 18 samples.

Results

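The step from long-term hematopoietic stem cells (LT-HSC) to the myeloid-biased multipotent progenitors called MPP3 was examined in mice without Helios. Its members are the 3 MPP3 libraries and the 3 LT-HSC libraries of Helios knockout (KO) mice, 6 of the 18 poly(A) RNA libraries of the series, chosen by the population, genotype and number in their titles. All 6 were made from marrow of mice that were 10 weeks old. The LT-HSC KO group held cells sorted as lineage-negative, Sca1-positive, Kit-positive, CD48-negative and CD150-positive. The MPP3 KO group shared the first 3 of these gates and was CD48-positive, CD150-negative and Flt3-negative. The same 2 populations of wild type (WT) mice, and the lymphoid-biased MPP4 of KO mice (CD48-positive, CD150-negative, Flt3-positive), served for comparison, each with 3 libraries. Each genotype was taken to have 3 mice, and libraries of a genotype that share a number in their titles to come from 1 mouse. They deviated together from their group means, but no label says that they share a mouse. In both genotypes libraries numbered 1 had fewer detected genes (17362 to 18896) than those numbered 2 or 3 (19185 to 20272). Their shares of mitochondrial counts were also lower, at 0.307% to 0.370% against 0.395% to 0.673%. A number thus went with traits of the libraries across genotypes. Whether a shared mouse or a shared preparation batch lies behind a number was not tested. The labels give the KO only as a Helios KO, without the deleted exons or the tissues in which the gene is absent.

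Helios, encoded by Ikzf2, belongs to the Ikaros family of zinc finger proteins, which bind DNA in blood cells and recruit chromatin remodelling complexes. LT-HSC are largely quiescent and sustain blood production for life, and a share of them is primed with megakaryocyte and platelet transcripts. Cells that leave this state enter the cell cycle and pass through multipotent progenitors, of which MPP3 feed mainly into granulocytes and monocytes and MPP4 mainly into lymphoid cells.

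Whole-number read counts summed to 21053050 to 29613609 per library over the 6 libraries, and 18512 to 20070 genes per library had at least 1 read. Levels are CPM, counts scaled to library size with TMM factors, listed in the order of libraries 1, 2 and 3. Log2 fold changes of MPP3 KO over LT-HSC KO are given ± their standard error. A gene was called where the adjusted p of edgeR's quasi-likelihood test, fitted to 16325 genes in all 18 libraries, was under 0.05. That fit did not use the same-numbered pairs, whereas results given with the mouse as a block did. Some libraries stood apart by transcripts of other cells. The 11 markers of B and plasma cells summed to 2991, 165 and 155 CPM in MPP3 KO, library 1 far above the others, against 59.9, 63.2 and 66.6 CPM in LT-HSC KO. In the WT groups MPP3 WT 1 and 2 were high in the same markers, and LT-HSC WT 2 and 3 were high in markers of mature neutrophils. List counts of the KO step are therefore also given without the plasma-rich MPP3 libraries (MPP3 KO 1, MPP3 WT 1 and 2) where that changed them.

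Ikzf2 (ENSMUSG00000025997, chromosome 1 from 69531214 to 69687245, mm10), the targeted gene, still gave reads in all 6 libraries. Its level was 11.1, 6.56 and 11.2 CPM in LT-HSC KO and 19.03, 19.03 and 24.0 CPM in MPP3 KO, so that every MPP3 library lay above every LT-HSC library. The log2 fold change was 1.10 ± 0.33 (edgeR adjusted p = 0.0327), and the call was lost without LT-HSC KO 1, 2 or 3, without MPP3 KO 1 or 3, or without the plasma-rich MPP3 libraries (edgeR adjusted p = 0.0519 to 0.146). In WT mice the same step gave 0.27 ± 0.32 (edgeR adjusted p = 0.615), from levels of 39.8, 42.0 and 39.3 CPM to 42.6, 65.6 and 38.3 CPM. The difference between the 2 steps was 0.83 ± 0.45 (unadjusted p = 0.0842, edgeR adjusted p = 1). Within KO mice Ikzf2 was also higher in MPP3 than in MPP4, where it stood at 3.55, 11.1 and 10.2 CPM (log2 1.32 ± 0.33, edgeR adjusted p = 0.0242). Which exons and which strand were counted is not stated in the sources at hand, so these reads do not say how much full-length Helios transcript was present.

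Of the other Ikaros family genes, Ikzf1, which encodes Ikaros itself, rose from 139.5, 152 and 132 CPM to 190.3, 235 and 212 CPM (log2 0.59 ± 0.10, edgeR adjusted p = 0.000582). Ikzf4, which encodes Eos, fell from 11.4, 10.3 and 11.7 CPM to 0.0692, 0.913 and 0.674 CPM (log2 -4.33 ± 1.06, edgeR adjusted p = 0.0119). Neither pair of groups overlapped, and the 2 genes moved in opposite directions. Ikzf3, with 1 read in LT-HSC KO and 78 in MPP3 KO, and Ikzf5, at log2 -0.20, did not pass.

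The genes of the sorting gates describe the sort and were not tested as findings. Cd48 stood at 3.25, 4.73 and 2.47 CPM in LT-HSC KO and 347, 242 and 327 CPM in MPP3 KO. Slamf1, which encodes CD150, stood at 67.5, 53.7 and 55.6 CPM and 8.61, 2.09 and 3.48 CPM. Both moved with their gate in every library. Flt3, whose protein the MPP3 gate excludes, nevertheless had 553, 750.4 and 729 CPM in MPP3 KO against 57.1, 78.8 and 74.8 CPM in LT-HSC KO, below the 2705, 3537 and 3035 CPM of MPP4 KO. Kit and Ly6a (Sca1), which both gates require, had log2 fold changes of -0.31 and -0.20, and neither was called (edgeR adjusted p = 0.191 and 0.466). With the mouse as a block Kit passed at -0.32 (edgeR adjusted p = 0.0095).

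Of the 16325 genes tested, 2231 (13.7%) were called between MPP3 KO and LT-HSC KO, 1118 higher (6.85%) and 1113 lower (6.82%). The median log2 fold change of all tested genes was 0.00, and 49.8% of them lay above 0. The larger changes leaned towards loss: 259 of the higher and 362 of the lower genes changed by at least 2 on the log2 scale, and 182 and 248 by at least 3. Of the called genes 2186 (98.0%) had groups that did not overlap, and 2213 moved the same way within all 3 same-numbered pairs. A lack of overlap, also where it is given for a named gene, thus adds little to its call. Across all tested genes 2605 were higher without overlap (16%) and 2762 lower (16.9%). The calls without the plasma-rich MPP3 libraries were 596 higher and 663 lower. They were 640 and 758 without LT-HSC KO 2, 695 and 715 without MPP3 KO 1, and 729 and 708 without MPP3 KO 3. With the mouse as a block 1621 genes were higher and 1468 lower. Libraries 2 and 3 alone gave 753 higher and 885 lower.

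**Figure D1:**
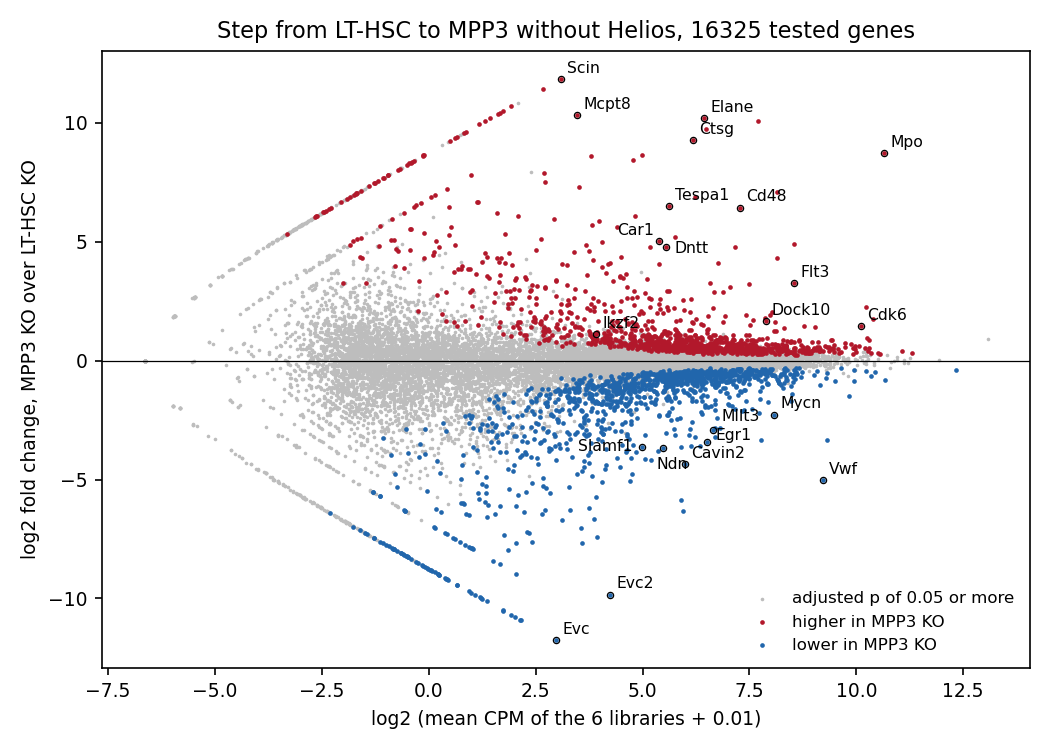
Each point is 1 of 16325 tested genes, with the log2 mean CPM of the 6 libraries on the horizontal axis and the log2 fold change of MPP3 KO over LT-HSC KO on the vertical axis; red and blue points passed the test, and circled points are named. Mpo combines a high level with a log2 fold change of 8.74, Vwf stands at -5.02, and the diagonal lines at the left are genes with 0 reads in 1 of the 2 groups.

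The genes of primary granules, the protease and peroxidase stores of neutrophil and monocyte precursors, made up the list with the largest median rise among the 24 lists that describe the populations themselves. Of 13 tested members 11 rose and 0 fell, with a median log2 fold change of 3.22. Mpo, which encodes myeloperoxidase, stood at 8.48, 6.34 and 7.78 CPM in LT-HSC KO and 4447, 1849 and 3371 CPM in MPP3 KO (log2 8.74 ± 1.03, edgeR adjusted p = 2.98e-05). Elane, neutrophil elastase, went from 0.0353, 0.215 and 0.183 CPM to 252, 70.8 and 195 CPM (log2 10.21 ± 1.98, edgeR adjusted p = 0.00238). Ctsg, cathepsin G, went from 0.318, 0.143 and 0.229 CPM to 234, 51.3 and 151 CPM (log2 9.27 ± 1.25, edgeR adjusted p = 0.000101). The rule that named these 3 genes asks for groups without overlap. Within MPP3 KO, library 1 was highest and library 2 lowest in all 3. Ms4a3, a membrane protein of granulocyte and monocyte progenitors, followed the same order, from 1.20, 0.717 and 0.549 CPM to 66.2, 14.996 and 43.6 CPM (log2 5.64 ± 1.20, edgeR adjusted p = 0.0048). The other called members were Cst7, Plac8, Nkg7, Prss57, Serpinb1a, Prtn3 and Srgn, with log2 fold changes of 4.37 down to 0.56. Of the 11, 10 were lowest in MPP3 KO 2 and 10 highest in MPP3 KO 1, against 667 and 593 of all 1118 genes that rose. The count was 11 without any 1 of the 6 KO libraries and without the plasma-rich ones. Elane alone lost its call with limma voom (adjusted p = 0.0687). Lyz2 and Ctsc stood at log2 0.08 and -0.21 and did not pass.

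Levels per length place Mpo among all other transcripts of each population. In the authors' deposited signal per kb of transcript, Mpo averaged 278 ± 38.7 (SD, n = 3) in LT-HSC KO and 116798 ± 47113 in MPP3 KO. That placed it 8267th in LT-HSC KO and 2nd in MPP3 KO among 16215 protein-coding genes. Adgrg1, an adhesion receptor of stem and progenitor cells, was 1st in both, although it fell by 0.40 on the log2 scale (edgeR adjusted p = 0.00514). Other moves into the top 12 were those of Adgrl4, an adhesion receptor, from the 31st to the 10th place, and of H2afy, the histone macroH2A1, from the 130th to the 12th.

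PU.1, a main factor of myeloid genes, binds a purine-rich sequence, and the granule genes shown are those whose promoter held it. The 250 bases before the RefSeq start (GRCm38.p6, all on the plus strand) were searched on both strands for GAGGAAGT. Capitals mark the match, which lies 224 to 217 bases before the start in Mpo (chr11:87793534-87793783), 85 to 78 in Elane (chr10:79886062-79886311) and 95 to 88 in Prtn3 (chr10:79879417-79879666). In Ctsc (chr7:88277835-88278084), which did not change, it lies 151 to 144 bases before the start and reads ACTTCCTC, on the other strand.
Mpo: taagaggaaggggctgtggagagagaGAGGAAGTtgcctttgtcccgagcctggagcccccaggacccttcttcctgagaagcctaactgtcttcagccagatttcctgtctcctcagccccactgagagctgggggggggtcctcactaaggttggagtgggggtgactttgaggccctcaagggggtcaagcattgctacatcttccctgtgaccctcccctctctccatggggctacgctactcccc
Elane: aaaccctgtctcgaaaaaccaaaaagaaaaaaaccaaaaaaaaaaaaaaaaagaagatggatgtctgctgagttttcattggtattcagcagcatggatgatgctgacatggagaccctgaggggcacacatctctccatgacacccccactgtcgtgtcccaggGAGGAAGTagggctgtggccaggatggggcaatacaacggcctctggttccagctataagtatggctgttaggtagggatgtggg
Prtn3: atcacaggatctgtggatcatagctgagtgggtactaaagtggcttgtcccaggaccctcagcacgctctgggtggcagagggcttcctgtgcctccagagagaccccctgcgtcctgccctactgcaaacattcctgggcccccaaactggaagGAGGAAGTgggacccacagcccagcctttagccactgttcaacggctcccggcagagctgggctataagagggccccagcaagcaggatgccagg
Ctsc: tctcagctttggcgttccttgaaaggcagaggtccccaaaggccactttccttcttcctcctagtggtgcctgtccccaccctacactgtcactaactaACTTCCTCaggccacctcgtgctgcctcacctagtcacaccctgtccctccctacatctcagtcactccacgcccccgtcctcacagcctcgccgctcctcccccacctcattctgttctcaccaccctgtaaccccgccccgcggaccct
Among 11 granule genes with a promoter in the table, 4 held this sequence. Over all 27025 promoters the share was 2.46%, over the 11246 of tested genes 2.59%, over 858 of the higher genes 4.66% and over 845 of the lower genes 1.78%. A match is a string of letters and not a measured binding site. The TGGGAA string that Ikaros family proteins can bind was in 20% of the higher and 22.6% of the lower genes' promoters, against 20.6% of tested genes.

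Of 15 tested myeloid transcription factors 7 rose and 1 fell, with a median of 0.64, and the rises numbered 6 without the plasma-rich libraries. Cebpa, the factor that granulocyte and monocyte fate depends on, stood at 2.05, 1.83 and 2.29 CPM in LT-HSC KO and 38.7, 25.0 and 29.8 CPM in MPP3 KO (log2 3.92 ± 0.34, edgeR adjusted p = 8.23e-07). Irf8, which directs monocyte and dendritic cell fate, stood at 5.83, 8.997 and 9.29 CPM and 88.8, 28.9 and 57.2 CPM (log2 2.86 ± 0.47, edgeR adjusted p = 0.000647). Neither gene's groups overlapped, and Irf8 spread about as widely within MPP3 KO as the granule genes, again highest in library 1 and lowest in library 2. Cebpd rose by 1.99 ± 0.36 on the log2 scale (edgeR adjusted p = 0.00147) and Gfi1, a repressor needed by granulocytes, by 1.95 ± 0.29 on the log2 scale (edgeR adjusted p = 0.000312). The other 3 that rose were Spi1 (which encodes PU.1), Myb and Myc, at 1.16, 0.64 and 0.51. Zeb2 was the one called lower, at -0.58, and its call was lost without LT-HSC KO 1 or 2, MPP3 KO 2 or 3, or MPP3 WT 2.

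Receptors for myeloid cytokines changed in both directions. Of 15 tested 6 rose and 2 fell, with a median of 1.06. Csf1r, the receptor for the macrophage growth factor, went from 0.883, 4.30 and 6.54 CPM to 67.5, 19.9 and 40.9 CPM (log2 3.47 ± 0.82, edgeR adjusted p = 0.00973), and did not pass without the plasma-rich libraries (edgeR adjusted p = 0.0606). Csf3r, which binds G-CSF, went from 102, 53.8 and 59.4 CPM to 316, 260.1 and 236 CPM (log2 1.91 ± 0.22, edgeR adjusted p = 1.78e-05). Il1r1, the interleukin-1 receptor, went from 15.05, 20.9 and 17.4 CPM to 92.9, 69.4 and 72.2 CPM (log2 2.13 ± 0.18, edgeR adjusted p = 8.11e-07). For Csf1r, Csf3r and Il1r1 alike the lowest MPP3 KO library was above the highest LT-HSC KO library. Il1rl1, the interleukin-33 receptor of mast cells and basophils, had 0 reads in LT-HSC KO and 12.1, 2.89 and 3.82 CPM in MPP3 KO, at least 168-fold higher against a floor of 3 reads over the group (edgeR adjusted p = 0.00498). Csf2rb and Il3ra, subunits of the receptors for interleukin-3 and GM-CSF, rose by 1.75 and 1.15. The called falls were Epor, at 30.3, 18.2 and 21.6 CPM in LT-HSC KO and 8.79, 4.68 and 7.82 CPM in MPP3 KO (log2 -1.72 ± 0.48, edgeR adjusted p = 0.0241), and Il6st at -0.83. The call of Epor was lost without LT-HSC KO 1, MPP3 KO 2, MPP3 KO 3 or the plasma-rich libraries (edgeR adjusted p = 0.0898, 0.0844, 0.0669 and 0.0745). Fewer falls were called without some libraries: 1 without LT-HSC KO 1 or 2 or the plasma-rich ones and 0 without MPP3 KO 2 or 3. The rises numbered 5 without the plasma-rich libraries.

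Transcripts of basophils and mast cells were among the largest rises. Of 8 markers of mast cells, basophils and eosinophils 4 rose and 2 lay below 0. The sum of the 8 went from 7.52, 63.2 and 14.5 CPM in LT-HSC KO to 202, 106 and 137 CPM in MPP3 KO. Cpa3, mast cell carboxypeptidase, stood at 5.76, 2.47 and 5.77 CPM and 87.0, 70.8 and 79.4 CPM (log2 4.09 ± 0.42, edgeR adjusted p = 7.19e-06). Mcpt8, a basophil protease, had 1 read over the LT-HSC KO libraries and 33.8, 13.2 and 19.8 CPM in MPP3 KO, a ratio of 1765 (95% counting interval 316 to 69758, edgeR adjusted p = 5.92e-06). The sums did not overlap, and library 2 held both the highest LT-HSC and the lowest MPP3 value. Most of the 63.2 CPM of LT-HSC KO 2 came from list members other than Cpa3, Mcpt8 and Prss34. Prss34, a basophil protease, reached 51.5, 11.6 and 19.6 CPM from 0.0353, 0.0358 and 0.137 CPM (log2 8.62 ± 1.53, edgeR adjusted p = 0.00174). Ms4a2, a chain of the high-affinity IgE receptor, had 0 reads in LT-HSC KO and 25.5, 2.85 and 9.66 CPM in MPP3 KO, at least 340-fold higher (edgeR adjusted p = 0.000284). The eosinophil genes Epx and Prg2 were among the 4 of the 8 that did not pass. In a bulk library, fewer cells that carry a transcript and less transcript per cell cannot be told apart, and this holds for all lists here.

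**Figure D2:**
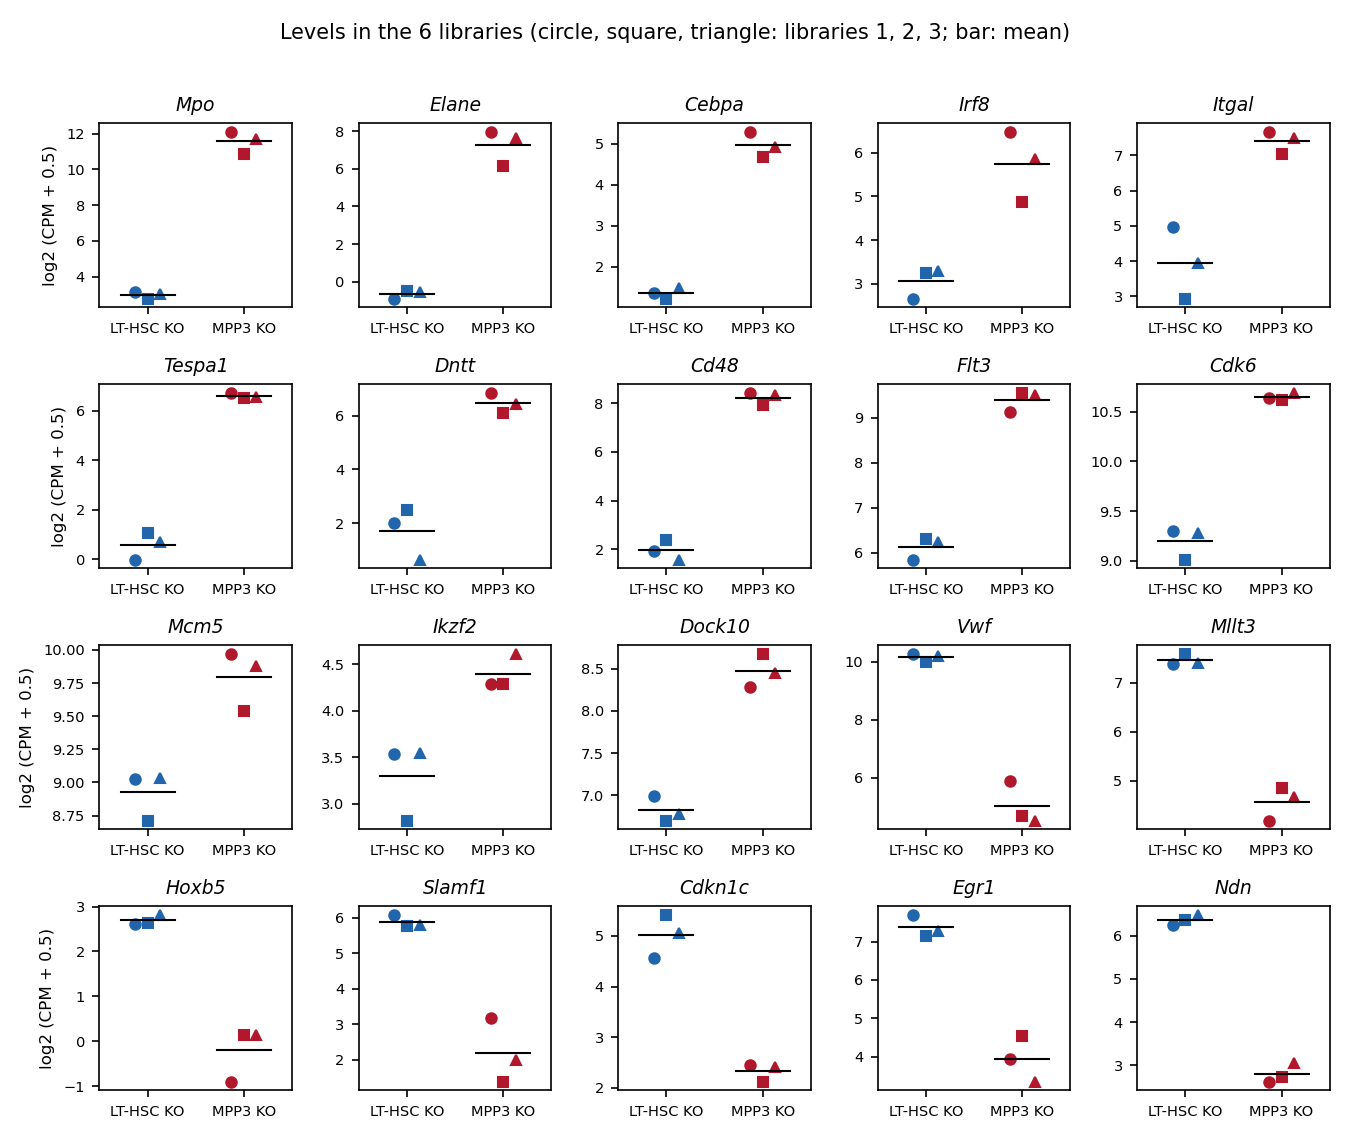
Each panel gives 1 gene's level as log2 of CPM plus 0.5, on its own scale, in the 3 LT-HSC KO libraries (blue) and the 3 MPP3 KO libraries (red), with the mean as a bar. The panels were picked from called genes, 98.0% of which had groups without overlap, and no panel shows overlap. In Mpo, Elane, Cebpa and Irf8 the square of MPP3 KO library 2 lies lowest among the red points. So it does in other panels and in 667 of all 1118 genes that rose.

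Of 32 tested lymphoid priming genes 18 rose and 3 fell, with a median of 1.22, or 1.46 over 31 genes when 1 gene of at most 3 reads was left out. Tespa1, which acts in T cell receptor signalling of thymocytes, went from 0.495, 1.58 and 1.144 CPM to 106, 90.5 and 93.3 CPM (log2 6.49 ± 0.30, edgeR adjusted p = 1.04e-09). Dntt, terminal transferase, went from 3.46, 5.05 and 1.05 CPM to 116, 67.7 and 87.3 CPM (log2 4.79 ± 0.64, edgeR adjusted p = 9.35e-05). Both rose without overlap in all 3 same-numbered pairs. Tcf7, the T lineage factor TCF-1, rose from 1.94, 0.502 and 1.60 CPM to 22.3, 11.4 and 9.09 CPM (log2 3.402 ± 0.83, edgeR adjusted p = 0.0118). Its call was lost without LT-HSC KO 2 (edgeR adjusted p = 0.059) or without the plasma-rich libraries (edgeR adjusted p = 0.117). Other called rises, chosen after their values were seen, included the recombinase gene Rag2 (3.98), Ly6d (5.01) and Satb1 (2.93), and genes next to absent from LT-HSC KO: Il7r with 3 reads there and 147 in MPP3 KO, Ccr7 with 1 and 126, Ccr9 with 3 and 90, and Bcl11b with 0 and 126. The falls were Ltb, Foxo1 and Mef2c, at -1.27, -0.87 and -0.82. Flt3, which the gate used, and Ikzf1 are counted among the 18. With limma voom 11 members of the list rose, and without the plasma-rich libraries 13 rose and 2 fell.

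Adhesion and homing genes followed, with 7 of 15 tested called higher, 0 lower and a median of 0.84, or 6 higher without the plasma-rich libraries. Itgal, the alpha chain of the integrin LFA-1, went from 31.0, 7.17 and 14.9 CPM to 204, 132 and 180.3 CPM (log2 3.28 ± 0.52, edgeR adjusted p = 0.000449). Itgam, the alpha chain of the myeloid integrin Mac-1, went from 1.06, 0.896 and 1.56 CPM to 8.58, 7.69 and 11.5 CPM (log2 2.98 ± 0.46, edgeR adjusted p = 0.000343). Selplg, the adhesion ligand PSGL-1, went from 244, 208 and 206 CPM to 479, 362 and 378 CPM (log2 0.89 ± 0.16, edgeR adjusted p = 0.00125). The groups did not overlap for any of the 3. Cxcr4 and Cd44, receptors for the marrow niche ligands CXCL12 and hyaluronan, rose by 0.71 and 0.60, and Cx3cr1, with 0 reads in LT-HSC KO, was at least 74.0-fold higher.

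Stem cell transcription factors fell or did not pass, and none rose. Of 20 tested 13 fell, with a median of -0.81, the count staying between 12 and 13 without any 1 KO library and at 11 without the plasma-rich ones. Mllt3, a regulator of stem cell maintenance, fell from 166, 193 and 170.2 CPM to 17.6, 28.1 and 24.7 CPM (log2 -2.91 ± 0.16, edgeR adjusted p = 9.38e-09). Mycn, a Myc family factor, fell from 350.2, 546 and 455 CPM to 60.0, 122 and 98.7 CPM (log2 -2.27 ± 0.25, edgeR adjusted p = 1.28e-05). Hoxb5, a homeobox gene restricted to LT-HSC, fell from 5.62, 5.74 and 6.54 CPM to 0.0346, 0.609 and 0.599 CPM (log2 -3.84 ± 0.82, edgeR adjusted p = 0.00493). In Mllt3 and Mycn the residual level was lowest in MPP3 KO 1 and highest in MPP3 KO 2. Tcf15, which marks quiescent stem cells, fell from 17.7, 21.8 and 22.7 CPM to 3.32, 5.14 and 3.33 CPM (log2 -2.40 ± 0.57, edgeR adjusted p = 0.00966), and did not pass without the plasma-rich libraries (edgeR adjusted p = 0.0684). The other called members included Mecom, Nkx2-3, Prdm16, Gfi1b, Gata2, Fli1, Meis1 and Runx1, at -2.11 to -0.42. Hlf, Erg, Hoxa5, Hoxa9, Tal1, Msi2 and Lyl1 did not pass, at -0.71 to 0.25.

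Surface and other marker genes of stem cells gave 13 called lower of 17, none higher, and a median of -1.28. Jam3, a junctional adhesion molecule, fell from 13.8, 21.2 and 18.6 CPM to 1.45, 2.28 and 1.796 CPM (log2 -3.28 ± 0.31, edgeR adjusted p = 2.88e-06). Sult1a1, a sulfotransferase, fell from 49.4, 55.1 and 46.2 CPM to 3.29, 7.498 and 2.171 CPM (log2 -3.54 ± 0.50, edgeR adjusted p = 0.000153). Fgd5, whose locus marks LT-HSC, fell from 156, 139 and 143 CPM to 35.9, 48.5 and 28.6 CPM (log2 -1.96 ± 0.31, edgeR adjusted p = 0.00055), and Ctnnal1, an alpha-catulin gene, by 2.40 ± 0.34 on the log2 scale (edgeR adjusted p = 0.000169). Each was lower in every MPP3 KO library than in every LT-HSC KO library. Tek, Procr (EPCR), Esam, Tie1, Itgb3, Robo4, Angpt1 and Eng also fell, at -1.71 to -0.78. Without the plasma-rich libraries 8 of the 17 passed.

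Imprinted genes, several of which restrain the growth of stem cells, had the lowest median of the lists that describe the populations themselves, -2.42, with 8 of 13 tested lower and 0 higher. Ndn, which encodes the growth suppressor necdin, fell from 75.7, 82.0 and 89.5 CPM to 5.605, 6.05 and 7.78 CPM (log2 -3.67 ± 0.43, edgeR adjusted p = 2.51e-05). Cdkn1c, the cell cycle inhibitor p57, fell from 23.1, 42.2 and 32.9 CPM to 4.95, 3.84 and 4.83 CPM (log2 -2.85 ± 0.28, edgeR adjusted p = 3.48e-06). Grb10, an adaptor that dampens insulin signalling, fell from 187, 184 and 171 CPM to 26.2, 43.3 and 31.6 CPM (log2 -2.42 ± 0.24, edgeR adjusted p = 3.97e-06). Every MPP3 KO library kept a low level of these 3 genes. Igf2r, the receptor that clears IGF2, fell from 37.7, 50.3 and 48.0 CPM to 9.83, 4.34 and 9.21 CPM (log2 -2.54 ± 0.23, edgeR adjusted p = 1.99e-06). Plagl1, Peg3, Dlk1 and Sgce were also called lower, Plagl1 and Peg3 with 0 reads in MPP3 KO (at least 127-fold and at least 56.7-fold lower). The count fell to 4 without LT-HSC KO 2 or 3 or MPP3 KO 2 or 3, to 5 without MPP3 KO 1 and to 6 without the plasma-rich libraries.

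Megakaryocyte and platelet genes were lower or did not pass. Of 36 tested 18 fell and none rose, with a median of -1.57, and without the plasma-rich libraries 15 fell. Vwf, von Willebrand factor, fell from 1247, 1026 and 1173 CPM to 58.4, 25.2 and 22.4 CPM (log2 -5.02 ± 0.42, edgeR adjusted p = 5.89e-07), or from the 192nd to the 7108th place by signal per kb. Cavin2, which encodes a caveolar protein, fell from 130.1, 122.9 and 114 CPM to 11.04, 2.97 and 3.78 CPM (log2 -4.36 ± 0.67, edgeR adjusted p = 0.000381). Ehd3, an endocytic regulator, fell from 213, 115 and 122 CPM to 21.1, 7.31 and 8.98 CPM (log2 -3.59 ± 0.44, edgeR adjusted p = 4.22e-05). For these 3 genes MPP3 KO 1 kept the highest residual level. Timp3, a metalloprotease inhibitor, fell from 44.5, 43.7 and 31.4 CPM to 2.42, 3.58 and 0.898 CPM (log2 -4.11 ± 0.58, edgeR adjusted p = 0.000175), with the highest residual level in MPP3 KO 2. The order of the libraries was not counted over all genes that fell. The platelet chemokine Pf4, the glycoprotein gene Gp9, the integrin Itgb3 and the thrombin receptor F2r also fell, at -2.88, -1.26, -1.67 and -0.96, and Gp1bb kept 3 reads in MPP3 KO against 85 in LT-HSC KO. Itga2b, Selp, Plek, Nfe2 and Gata1 did not pass. Summed over the list, megakaryocyte genes stood at 9350.1, 8205 and 7968 CPM in LT-HSC KO and 3788, 3737 and 3265 CPM in MPP3 KO.

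Erythroid genes gave 2 rises and 2 falls among 21 tested (19% called, against 13.7% of all tested genes), with a median of 0.20. Car1, carbonic anhydrase 1, an early erythroid and basophil lineage gene, stood at 5.69, 0.0358 and 1.69 CPM in LT-HSC KO and 96.8, 77.8 and 69.3 CPM in MPP3 KO (log2 5.03 ± 0.95, edgeR adjusted p = 0.00203). Car2, carbonic anhydrase 2, went the other way, from 2071, 2236 and 1953 CPM to 1031, 1425 and 1088 CPM (log2 -0.82 ± 0.21, edgeR adjusted p = 0.0172). Its call was lost without LT-HSC KO 2, MPP3 KO 1 MPP3 KO 3 or the plasma-rich libraries (edgeR adjusted p = 0.063, 0.0791, 0.0708 and 0.102). The remaining calls were Epor, lower, and Rhd, higher by 2.95. Rises numbered 1 without any 1 MPP3 library of either genotype, LT-HSC KO 2 or LT-HSC KO 3, or the plasma-rich libraries. Falls numbered 1 without LT-HSC KO 1 or 2 or MPP3 KO 1 or 2, and 0 without MPP3 KO 3 or the plasma-rich libraries. Klf1, Tfrc and the globin genes did not pass.

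**Figure D3:**
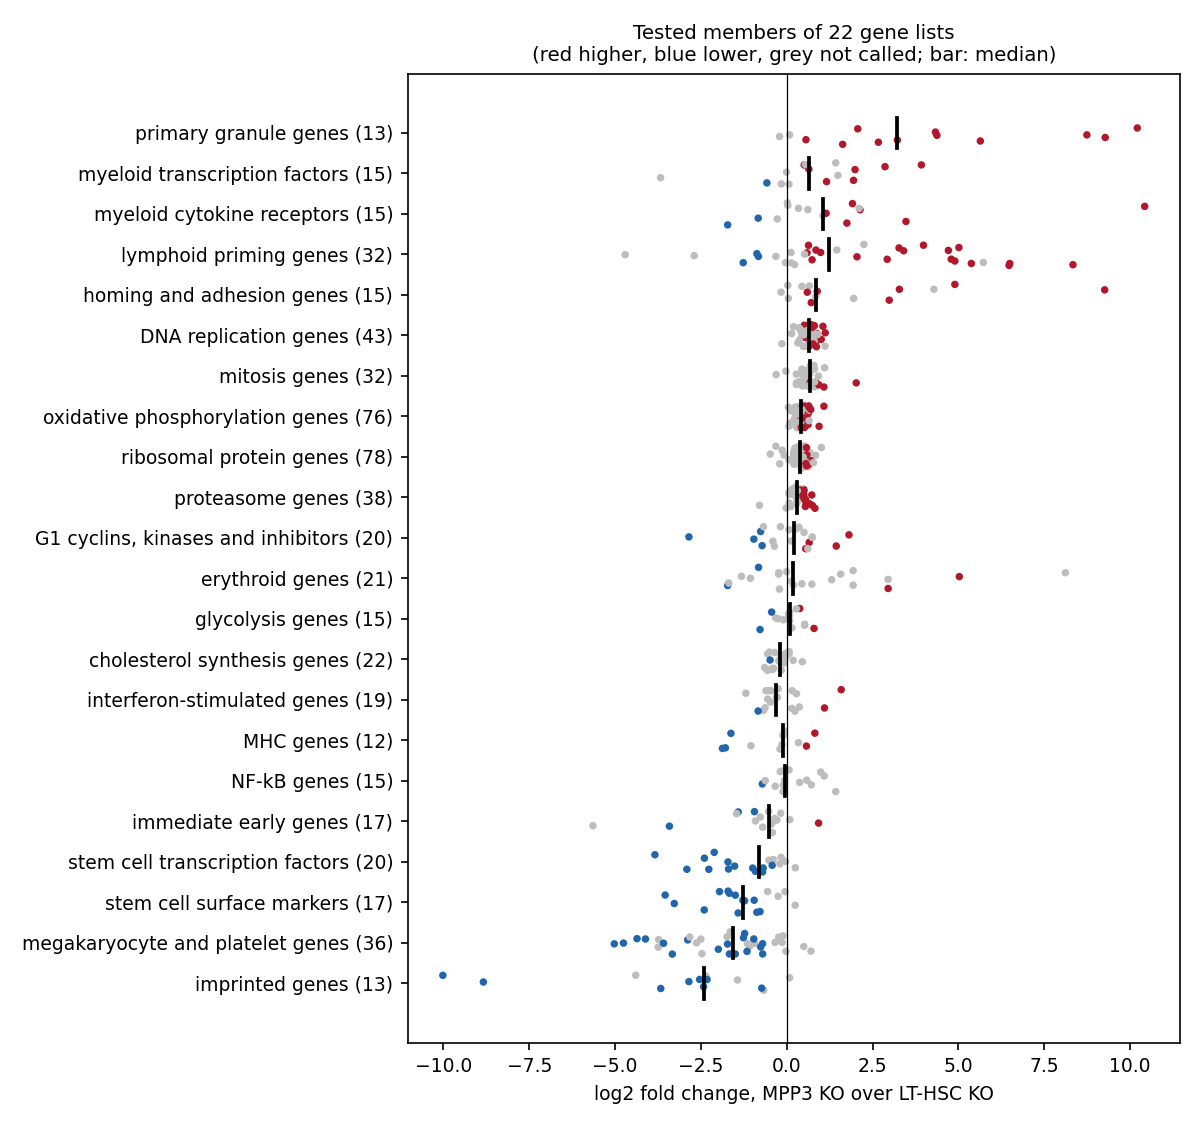
Each point is a tested member of 1 of 22 gene lists (number tested in brackets) at its log2 fold change of MPP3 KO over LT-HSC KO; red and blue points passed the test, grey points did not, and the bar is the median of the list. Primary granule genes have the highest median (3.22) and imprinted genes the lowest (-2.42), while replication, ribosomal and respiratory genes sit in narrow bands that lie mostly above 0.

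Of 43 tested DNA replication genes 19 rose and 0 fell, 42 lay above 0, and the median was 0.64. Mcm5, a subunit of the replicative helicase, stood at 521, 419 and 525 CPM in LT-HSC KO and 1003, 744 and 939 CPM in MPP3 KO (log2 0.88 ± 0.19, edgeR adjusted p = 0.00515). Gins1, of the same helicase assembly, stood at 23.8, 17.6 and 24.7 CPM and 57.8, 37.0 and 49.0 CPM (log2 1.12 ± 0.22, edgeR adjusted p = 0.00237). Both were separated without overlap, with library 2 the lowest in either group. Mcm10 and Gins2 rose by 1.05 and 1.004 on the log2 scale (edgeR adjusted p = 0.0137 and 0.0276). Mcm10 did not pass without LT-HSC KO 2, MPP3 KO 1 or the plasma-rich libraries (edgeR adjusted p = 0.0733, 0.0608 and 0.078), nor Gins2 without LT-HSC KO 1 or 2, MPP3 KO 1 or 3, or the plasma-rich libraries (edgeR adjusted p = 0.0804 to 0.112). Of the 19, 17 were lowest in MPP3 KO 2 among the MPP3 KO libraries, against 667 of all 1118 genes that rose. The count was 35 with the mouse as a block, 25 without MPP3 KO 2, 4 without LT-HSC KO 2, 12 without LT-HSC KO 3, 5 without MPP3 KO 1, 10 without MPP3 KO 3 and 5 without the plasma-rich libraries.

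The promoter of Mcm5 (chr8:75109259-75109508, GRCm38.p6, plus strand, RefSeq) is shown because E2F factors control replication genes through TTTNNCGC, searched on both strands. Capitals mark 2 overlapping E2F matches, 153 to 146 bases before the start (TTTCGCGC) and 149 to 142 before it on the other strand (GCGCCAAA), and a TGGGAA string 67 to 62 bases before it.
Mcm5: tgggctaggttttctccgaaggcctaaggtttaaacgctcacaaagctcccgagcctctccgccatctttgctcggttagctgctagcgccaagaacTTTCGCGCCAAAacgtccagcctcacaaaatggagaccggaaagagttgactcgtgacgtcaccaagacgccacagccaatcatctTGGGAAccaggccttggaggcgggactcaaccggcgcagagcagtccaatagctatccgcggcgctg
The E2F string was in 8 of 35 replication gene promoters, against 7.03% of the promoters of tested genes and 4.41% of all promoters.

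Mitosis genes had a like median of 0.67 with 30 of 32 above 0, but 5 rose (15.6%, against 6.85% of all tested genes) and 0 fell. Ect2, which drives cytokinesis, stood at 16.8, 15.2 and 16.1 CPM in LT-HSC KO and 73.4, 44.5 and 77.4 CPM in MPP3 KO (log2 2.02 ± 0.21, edgeR adjusted p = 6.27e-06). Kif23, a kinesin of the midbody, stood at 20.2, 16.1 and 18.03 CPM and 33.4, 31.2 and 39.2 CPM (log2 0.94 ± 0.18, edgeR adjusted p = 0.00198). The groups of both genes were apart. Ccnb2 rose by 0.85 ± 0.20 on the log2 scale (edgeR adjusted p = 0.00897) and failed without the plasma-rich libraries (edgeR adjusted p = 0.0523), and Birc5 rose by 1.08 ± 0.35 on the log2 scale (edgeR adjusted p = 0.0494), a call lost in 15 of 23 alternatives, among them without LT-HSC KO 2 or 3, MPP3 KO 1 or 3, or any 1 of the 6 WT libraries (edgeR adjusted p = 0.0501 to 0.28). The fifth was Kif20a. With the mouse as a block 19 of 32 passed. Without MPP3 KO 2 or LT-HSC KO 1 there were 10, and 3 without LT-HSC KO 2 or 3, MPP3 KO 1 or 3, or MPP3 WT 2 or 3, and 2 without the plasma-rich libraries. Mki67 and Top2a, often used as markers of cycling cells, stood at 0.28 and 0.46 and did not pass.

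Among 20 regulators of the G1 phase 4 rose and 4 fell, and 7 rose with the mouse as a block and 3 without the plasma-rich libraries. Cdk6, the kinase that speeds the exit of stem cells from quiescence, went from 631, 516 and 622 CPM to 1594, 1563 and 1651 CPM (log2 1.44 ± 0.13, edgeR adjusted p = 1.81e-06). Cdkn1a, the inhibitor p21, rose from 3.29, 3.94 and 5.22 CPM to 20.9, 10.3 and 12.5 CPM (log2 1.81 ± 0.42, edgeR adjusted p = 0.00838), although Cdkn1c, the inhibitor p57, fell. Cdkn1a missed the threshold without the plasma-rich libraries (edgeR adjusted p = 0.0556). Cyclin D1 (Ccnd1) fell from 27.5, 27.1 and 16.4 CPM to 15.7, 12.0 and 8.87 CPM (log2 -0.96 ± 0.28, edgeR adjusted p = 0.0334), and not without LT-HSC KO 1 or 2 or MPP3 KO 2 or 3 (edgeR adjusted p = 0.0731 to 0.14). The others were Cdk4 and Rbl1, higher, and Ccnd2 and Rbl2, lower. Cdk4 and Cdk6 rose while the cyclins D1 and D2 fell.

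Of 76 tested oxidative phosphorylation genes 27 rose, 0 fell and all 76 lay above 0, with a median of 0.42. Ndufa4, of the respiratory chain, stood at 102, 98.8 and 128 CPM in LT-HSC KO and 211, 208 and 278 CPM in MPP3 KO (log2 1.08 ± 0.14, edgeR adjusted p = 7.11e-05). Cox5a, a cytochrome c oxidase subunit, stood at 34.9, 31.3 and 36.3 CPM and 69.7, 61.0 and 66.2 CPM (log2 0.94 ± 0.18, edgeR adjusted p = 0.00197). Neither overlapped between groups. Ndufb5 rose by 0.64 ± 0.14 on the log2 scale (edgeR adjusted p = 0.00472) and Ndufs6 by 0.70 ± 0.21 on the log2 scale (edgeR adjusted p = 0.0347), the latter not without LT-HSC KO 1 or 2, MPP3 KO 1 or 3, or the plasma-rich libraries (edgeR adjusted p = 0.0926 to 0.136). All 27 called genes were lowest in MPP3 KO 2 among the MPP3 KO libraries, as were 667 of all 1118 genes that rose. The count was 47 with the mouse as a block, 9 without LT-HSC KO 2, 15 without LT-HSC KO 1, 14 without MPP3 KO 1, 12 without MPP3 KO 3 and 11 without the plasma-rich libraries.

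Proteasome subunits gave 16 rises of 38 with 0 falls and a median of 0.30. Psmb8, a subunit of the immunoproteasome, went from 272, 224 and 274 CPM to 503, 398 and 461 CPM (log2 0.82 ± 0.14, edgeR adjusted p = 0.000688), and Psmb3 rose by 0.75 ± 0.14 on the log2 scale (edgeR adjusted p = 0.0019). Psmd13 and Psmb5 rose by 0.73 and 0.66 on the log2 scale (edgeR adjusted p = 0.0146 and 0.0262), and both lost the call without LT-HSC KO 2, MPP3 KO 1 or the plasma-rich libraries, Psmb5 also without MPP3 KO 3 (edgeR adjusted p = 0.0624 to 0.132). The count was 6 without LT-HSC KO 2, 8 without MPP3 KO 1, 9 without MPP3 KO 3 and 6 without the plasma-rich libraries. Ribosomal protein genes had 7 of 78 higher (8.97%, against 6.85% of all tested genes), 0 lower, 73 above 0 and a median of 0.39. Rps2 rose from 100.05, 85.2 and 111 CPM to 170.0, 135 and 159 CPM (log2 0.65 ± 0.13, edgeR adjusted p = 0.00358). The calls of Rps15a and Rps27l, at 0.70 and 0.59, were each lost without LT-HSC KO 1, LT-HSC KO 2, MPP3 KO 1 or MPP3 KO 3 and in further alternatives (edgeR adjusted p = 0.0502 to 0.179). With the mouse as a block 23 passed, without the plasma-rich libraries 8, without LT-HSC KO 3 there were 16, without MPP3 WT 3 11, without MPP3 KO 1 or 2, LT-HSC WT 2 or MPP3 WT 2 4, and without LT-HSC KO 1 or 2 or MPP3 KO 3 there was 1. The share of counts from mitochondrial genes was 0.337% to 0.565% over the 6 libraries.

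Glycolysis genes showed no common direction, with 2 rises and 2 falls among 15 (26.7% called, against 13.7% of all tested genes) and a median of 0.08. Pfkp, platelet-type phosphofructokinase, fell from 202, 240.4 and 201 CPM to 144, 116 and 116 CPM (log2 -0.78 ± 0.12, edgeR adjusted p = 0.000405). Gpi1, glucose phosphate isomerase, rose from 343, 348 and 414 CPM to 494, 461 and 482 CPM (log2 0.38 ± 0.08, edgeR adjusted p = 0.00592). Slc2a1, the glucose transporter GLUT1, fell by 0.44 and Pgam1 rose by 0.79, and both calls were lost without LT-HSC KO 1 or 2, MPP3 KO 1 or 3, or the plasma-rich libraries, that of Slc2a1 also without LT-HSC KO 3, MPP3 KO 2, or MPP3 WT 1 or 2 (edgeR adjusted p = 0.0503 to 0.172). With the mouse as a block 4 rose, against 1 without LT-HSC KO 1 or 2, MPP3 KO 1 or 3, or the plasma-rich libraries. Falls numbered 1 without the plasma-rich libraries, MPP3 WT 1 or 2 or any 1 KO library other than MPP3 KO 1. Of 22 cholesterol synthesis genes 1 fell (4.55%, against 6.82% of all tested genes). It was Srebf2, the master regulator of the pathway, which fell from 1650.1, 1629.9 and 1581 CPM to 1231, 1184 and 1059.5 CPM (log2 -0.48 ± 0.10, edgeR adjusted p = 0.00305). Of the 22, 18 lay below 0, and with the mouse as a block 4 fell and 1 rose; 2 fell without LT-HSC KO 3 or MPP3 KO 2.

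Of 17 immediate early genes 3 fell and 1 rose (23.5% called, against 13.7% of all tested genes), 15 lay below 0, and the median was -0.53. Egr1, a factor linked to stem cell quiescence, fell from 208, 141 and 154 CPM to 14.7, 22.8 and 9.62 CPM (log2 -3.42 ± 0.57, edgeR adjusted p = 0.000686), with no overlap. Klf6 fell by 0.94, a call lost without MPP3 KO 1 or 3 or the plasma-rich libraries (edgeR adjusted p = 0.078, 0.0597 and 0.0665). Nr4a1 fell by 1.41 and Btg2 rose by 0.93, and both calls were lost without any 1 of the 6 KO libraries or without the plasma-rich ones (edgeR adjusted p = 0.0515 to 0.171), without MPP3 WT 2, and for Nr4a1 without LT-HSC WT 2. The falls numbered 7 with the mouse as a block and 1 without MPP3 KO 1 or 3 or the plasma-rich libraries. Without the latter none rose. Fos, Fosb, Jun, Junb, Jund, Dusp1 and the heat shock genes Hspa1a and Hspa1b did not pass.

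Of 12 tested MHC genes 3 fell and 2 rose, and the 3 that fell act in class II antigen presentation. Cd74, the invariant chain, fell from 146, 96.0 and 174 CPM to 50.8, 19.1 and 43.7 CPM (log2 -1.87 ± 0.35, edgeR adjusted p = 0.00163). H2-Aa fell from 65.2, 33.8 and 79.0 CPM to 17.2, 12.3 and 22.04 CPM (log2 -1.79 ± 0.37, edgeR adjusted p = 0.00372) and H2-Eb1 by 1.63 ± 0.39 on the log2 scale (edgeR adjusted p = 0.00965), the latter not without LT-HSC KO 3 (edgeR adjusted p = 0.0518). H2-DMa, which loads peptides onto class II molecules, rose from 147, 138 and 154 CPM to 231, 257 and 285 CPM (log2 0.82 ± 0.12, edgeR adjusted p = 0.000182), and Tap2 rose by 0.57. The class I genes H2-K1, H2-D1 and B2m, at -0.10, -0.11 and -0.07, and the class II genes H2-Ab1 and H2-DMb1, at -0.20 and -0.14, did not pass. Among 19 interferon-stimulated genes 2 rose and 1 fell (15.8% called, against 13.7% of all tested genes). Ifi27 rose from 81.0, 47.7 and 69.6 CPM to 159, 130.1 and 136 CPM (log2 1.10 ± 0.18, edgeR adjusted p = 0.000653). Oas2 rose by 1.59 ± 0.44 on the log2 scale (edgeR adjusted p = 0.0237), not without LT-HSC KO 1 or 2, MPP3 KO 1 or 3, or the plasma-rich libraries (edgeR adjusted p = 0.0554 to 0.113). Without the plasma-rich libraries 1 of the 19 rose. With the mouse as a block 6 fell, and 2 without LT-HSC KO 2 or LT-HSC WT 1 or 3. Of 15 NF-kB genes Nfkbia, the inhibitor of the pathway, fell by 0.71 on the log2 scale (edgeR adjusted p = 0.0207), not without LT-HSC KO 3, MPP3 KO 3 or the plasma-rich libraries (edgeR adjusted p = 0.0951, 0.0812 and 0.0634). No other passed, so 6.67% of the list was called, against 13.7% of all tested genes. With the mouse as a block 2 rose.

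The largest single changes lay at genes with next to no reads in 1 population. Scin, scinderin, an actin-severing protein, had 0 reads in LT-HSC KO and 24.8, 12.0 and 14.2 CPM in MPP3 KO, at least 449-fold higher (edgeR adjusted p = 6.88e-07). Gzmb, granzyme B, had 0 reads and 9.83, 7.35 and 5.69 CPM, at least 200-fold higher (edgeR adjusted p = 7.1e-05). Atp8b4, a lipid flippase, rose from 0.141, 0.251 and 0.0458 CPM to 63.0, 38.5 and 62.6 CPM (log2 8.44 ± 0.95, edgeR adjusted p = 1.71e-05). The genes of this paragraph were picked from those whose groups did not overlap, so every higher-group library had reads by choice. Gna14, a G protein subunit, and Clec10a, a C-type lectin, reached 14.7, 11.4 and 12.6 CPM and 23.7, 7.65 and 7.93 CPM (log2 7.87 ± 0.70 and 7.51 ± 1.06). In the other direction, Evc and Evc2, neighbouring genes on chromosome 5 whose proteins act at the base of the cilium in Hedgehog signalling, fell together. Evc stood at 11.7, 18.1 and 17.3 CPM in LT-HSC KO and had 0 reads in MPP3 KO, at least 425-fold lower (edgeR adjusted p = 0.000251). Evc2 stood at 36.2, 47.6 and 29.0 CPM and kept 3 reads in MPP3 KO, a ratio of 1045 (95% counting interval 357 to 5072, edgeR adjusted p = 3.48e-06). Cldn5 (a tight junction claudin), Gprc5c, Tmem47, Ncam2, Veph1 and Armh4 also had 0 reads in MPP3 KO, and were at least 138-fold to at least 247-fold lower. Tacr1, the substance P receptor, Cyp26b1, which degrades retinoic acid, Zfp334 and Chst7 kept 1, 1, 1 and 2 reads in MPP3 KO against 655, 493, 442 and 565 in LT-HSC KO.

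The step was then set beside the same step in WT mice, which share no library with it. There 2831 genes were called (17.3%), 1580 higher (9.68%) and 1251 lower (7.66%). Both genotypes called 1622 genes, all in the same direction, which is 72.7% of the KO calls and 57.3% of the WT calls. Another 609 genes were called in KO alone, 583 of them with the same sign in WT, and 1209 in WT alone, 1154 of them with the same sign in KO. Calls in 1 genotype alone are not a difference between genotypes. By the test of the difference 0 genes passed with edgeR (0.00%), 602 had an unadjusted p under 0.05 (3.69%), and DESeq2 called 4. Across genes the 2 sets of log2 fold changes had a Pearson r of 0.634 and a Spearman rho of 0.621 over 16325 genes, which are not independent replicates. List medians in KO and WT were 3.22 and 3.30 for granule genes, -1.57 and -1.46 for megakaryocyte genes, -0.81 and -0.90 for stem cell factors, 1.22 and 1.58 for lymphoid genes, and 0.42 and 0.57 for oxidative phosphorylation. They were further apart for erythroid genes (0.20 and 0.94), markers of mast cells, basophils and eosinophils (4.64 and 6.13) and mature neutrophil markers (2.66 and -1.43). Without the LT-HSC WT 2 and 3 libraries, rich in neutrophil transcripts, 1 gene passed with a more positive and 17 with a more negative step in KO. That fit leaves LT-HSC WT 1 alone in its group and takes it to vary like the other groups.

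**Figure D4:**
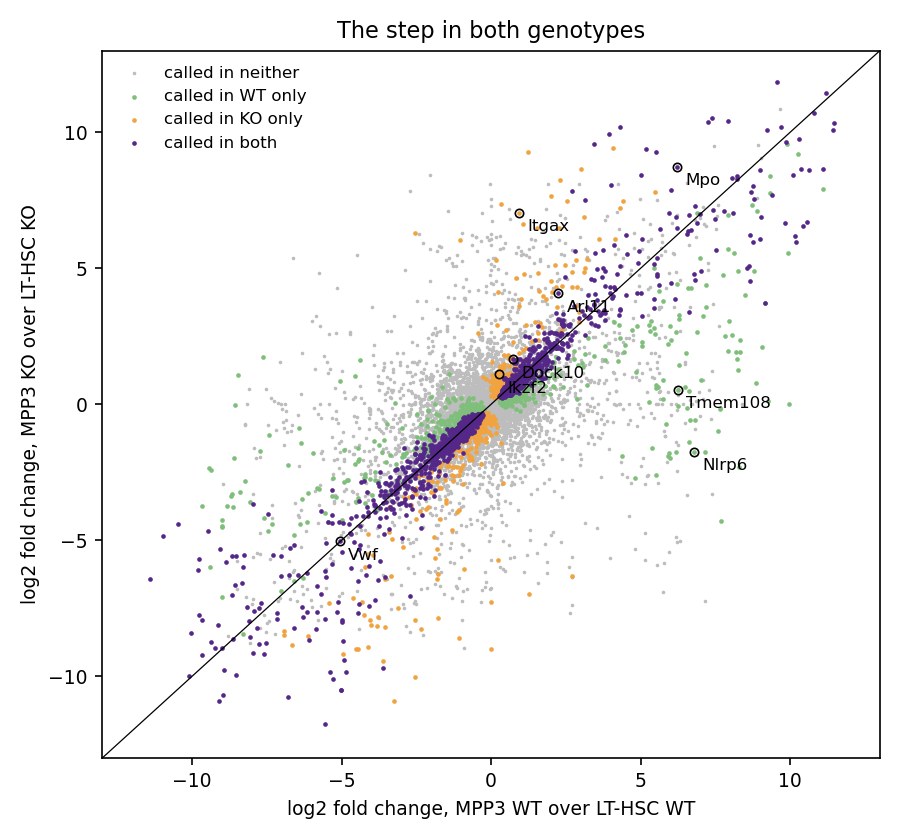
Each point is a tested gene, with the log2 fold change of MPP3 over LT-HSC in WT mice on the horizontal axis and in KO mice on the vertical axis; the line marks equal steps, and colours mark where the gene was called. Points called in both genotypes follow the line, Dock10 and Arl11 lie above it, and Nlrp6 and Tmem108 lie far below it.

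Among single genes, Dock10 had the smallest unadjusted p for a difference between the steps. Dock10 (chromosome 1 from 80501073 to 80758527), which activates the small GTPases Cdc42 and Rac, went from 127, 103 and 109 CPM to 311, 409 and 351 CPM in KO (log2 1.66 ± 0.12, edgeR adjusted p = 1.49e-07). In WT it went from 375, 307 and 360.1 CPM to 642, 529 and 565 CPM (log2 0.74 ± 0.12, edgeR adjusted p = 0.000539). Every KO library lay below every WT library of its population, and the KO step was the steeper. The difference of the steps was 0.92 ± 0.17 (unadjusted p = 4.9e-05, edgeR adjusted p = 0.388, DESeq2 adjusted p = 0.000688). Wdfy1, on the same chromosome from 79702262 to 79776143, stood at 131, 134 and 116 CPM in LT-HSC KO and 108, 111 and 94.0 CPM in MPP3 KO, which did not pass (log2 -0.28 ± 0.31, edgeR adjusted p = 0.635). In WT it stood at 18.1, 7.75 and 6.79 and 5.79, 14.0 and 7.48 CPM, with a difference of the steps of -0.02 ± 0.46 (edgeR adjusted p = 1). In LT-HSC it was higher in KO than in WT by 3.55 on the log2 scale (edgeR adjusted p = 0.000166). Arl11, an Arf-like GTPase, went from 2.12, 2.62 and 1.37 CPM to 33.9, 35.7 and 34.6 CPM in KO and from 4.53, 9.96 and 5.48 CPM to 32.3, 30.8 and 31.0 CPM in WT. Its steps differed by 1.84 ± 0.35 (unadjusted p = 7.13e-05, edgeR adjusted p = 0.388, DESeq2 adjusted p = 0.0013), and MPP3 levels were close in both genotypes.

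Small unadjusted p also belonged to genes near the detection limit. Nlrp6, an inflammasome sensor, had 1.27, 1.004 and 0.595 CPM in LT-HSC KO and 0.104, 0.0761 and 0.674 CPM in MPP3 KO, but 0 reads in LT-HSC WT and 0.512, 0.378 and 0.615 CPM in MPP3 WT (unadjusted p = 5.63e-05 for the difference of the steps, edgeR adjusted p = 0.388). Itgax, which encodes the integrin CD11c, had 0 reads in LT-HSC KO and 0.45, 0.913 and 0.449 CPM in MPP3 KO, against 1.48, 0.417 and 0.942 CPM and 1.65, 1.51 and 2.24 CPM in WT (unadjusted p = 0.000477, edgeR adjusted p = 1). Tmem108 had 0.0707, 0.0717 and 0.137 and 0.104, 0.266 and 0.0374 CPM in KO and 0 reads rising to 0.473, 0.378 and 0.181 CPM in WT (unadjusted p = 0.000687, edgeR adjusted p = 1). All 3 stayed under 3 CPM in these 12 libraries. Among list members, Kif23 had the steeper step in KO by 0.88 ± 0.25 (unadjusted p = 0.0026). Tcf7 and Dntt had the shallower step in KO, with differences of -3.22 ± 1.15 and -2.002 ± 0.91 (unadjusted p = 0.0124 and 0.0432). The edgeR adjusted p of Kif23, Tcf7 and Dntt was 1.

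For the granule genes the WT step starts from libraries of unlike level. Mpo had 7.45, 5.59 and 129.8 CPM in LT-HSC WT and Elane 0.195, 0.167 and 33.5 CPM, so that LT-HSC WT 3 stood far above all other LT-HSC libraries of either genotype. The differences of the steps were 2.51 ± 1.08 and 5.90 ± 2.39 (unadjusted p = 0.0337 and 0.0251, edgeR adjusted p = 1 for both). Without LT-HSC WT 2 and 3 they were -0.17 and 0.04, with LT-HSC WT 1 alone left in its group. The summed neutrophil markers were 3.86, 77.7 and 242 CPM in LT-HSC WT and 3.64, 9.25 and 5.17 CPM in LT-HSC KO.

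MPP3 and MPP4 of the KO mice were compared directly, since both of their steps start from the same LT-HSC libraries. Of 888 genes called (5.44%), 437 were higher in MPP3 KO (2.68%) and 451 lower (2.76%). Megakaryocyte and platelet genes were higher in MPP3 for 19 of 36 and lower for 0, with a median difference of 1.66, and erythroid genes for 9 of 21 and 0, with a median of 3.20. Vwf was higher by 2.71 ± 0.40 (edgeR adjusted p = 0.000476) and Cavin2 by 5.56 ± 0.99 (edgeR adjusted p = 0.00227), with 0.224, 0.0464 and 0.0794 CPM in MPP4 KO. Car1 was higher by 7.34 ± 1.12, at 0.0748, 1.49 and 0.0397 CPM in MPP4 KO (edgeR adjusted p = 0.000587). Among the erythroid calls were also the factors Gata1 and Klf1, at 5.52 and 3.91. Stem cell surface markers were higher for 9 of 17 and lower for 0. MPP3 KO thus lay between LT-HSC KO and MPP4 KO in Vwf, Cavin2 and the summed megakaryocyte list, which had 1474, 2335 and 1885 CPM in MPP4 KO.

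Markers of mast cells, basophils and eosinophils also set the 2 progenitors apart, with 4 of 8 higher in MPP3 KO and 0 lower. Cpa3 had 4.90, 1.86 and 1.43 CPM in MPP4 KO and was higher in MPP3 KO by 4.84 ± 0.44 (edgeR adjusted p = 6.68e-06). Prss34 stood at 0, 0 and 0.0397 CPM in MPP4 KO (edgeR adjusted p = 0.00206). Of the granule genes 4 of 13 were higher in MPP3 KO: Ms4a3 (5.50), Prtn3 (0.96), Nkg7 (0.94) and Srgn (0.74). Mpo, Elane and Ctsg were not, at 1.05 ± 0.73, 4.18 ± 1.31 and 1.10 ± 0.77 (edgeR adjusted p = 0.564, 0.0792 and 0.562), and Mpo had 1959.9, 1332 and 1375 CPM in MPP4 KO. Over the shared LT-HSC KO libraries, Mpo had a log2 fold change of 8.74 in MPP3 KO and 7.69 in MPP4 KO, where 3284 genes were called (20.1%), 1563 of them higher (9.57%) and 1721 lower (10.5%). Lymphoid genes were lower in MPP3 KO for 16 of 32 and higher for 0, with a median of -0.86. Dntt was lower by 4.80 (edgeR adjusted p = 8.48e-05), with 4093, 1789 and 1679 CPM in MPP4 KO, and Irf8 by 2.12 (edgeR adjusted p = 0.00733). Il1r1, although higher in MPP3 KO than in LT-HSC KO, was lower than in MPP4 KO by 1.72 (edgeR adjusted p = 1.7e-05). Igf2r and Grb10 moved apart: Igf2r was lower in MPP3 KO by 3.28, with 72.7, 71.7 and 83.3 CPM in MPP4 KO, and Grb10 higher by 3.36 ± 0.27, with 1.87, 3.62 and 4.37 CPM there (edgeR adjusted p = 7.62e-07 and 2.05e-06). No replication, respiratory, ribosomal or proteasome gene was called between MPP3 KO and MPP4 KO in either direction.

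Markers of cells outside both gates moved with the step and are given for each list. Of 11 B and plasma cell markers 4 rose (Igkc, Ighm, Jchain and Iglv1), and the list had its highest sum in MPP3 KO 1. In LT-HSC KO 6, 4 and 3 of the 11 were at 0 reads, and in MPP3 KO 1, 0 and 3. Igkc, an immunoglobulin light chain gene, stood at 0.707, 0.323 and 0.0458 CPM in LT-HSC KO and 1199.8, 14.0 and 31.4 CPM in MPP3 KO (log2 10.07 ± 1.99, edgeR adjusted p = 0.0027), and Ighm at 5.44, 4.41 and 2.24 and 1559, 71.8 and 49.997 CPM (log2 7.10 ± 1.34, edgeR adjusted p = 0.00193). Neither passed with limma voom (adjusted p = 0.599 and 0.265). Jchain lost its call without any 1 LT-HSC KO library, MPP3 KO 1 or the plasma-rich libraries (edgeR adjusted p = 0.0527 to 0.152), and Iglv1 without any 1 LT-HSC library, or without MPP3 KO 1 or 2 (edgeR adjusted p = 0.0532 to 0.111). The list had 2 calls without any 1 LT-HSC KO library or MPP3 KO 1 and 3 without the plasma-rich libraries. Library 1 thus held most of this signal, and its values for other genes were also the highest of the 3 in 593 of the 1118 genes that rose. Library 2 was the lowest of the 3 in 667 of them. The part of the plasma cell transcripts in these counts was not tested.

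Mature neutrophil markers summed to 30.1, 54.6 and 26.1 CPM in MPP3 KO against 3.64, 9.25 and 5.17 CPM in LT-HSC KO, and 13 of 13 had a log2 fold change above 0. At 0 reads were 6, 1 and 5 of the 13 in LT-HSC KO and 2, 2 and 1 in MPP3 KO. Of the 13, 1 passed (7.69%, against 6.85% of all tested genes called higher). That was Cxcr2, a chemokine receptor, from 0.0353, 1.43 and 2.15 CPM to 11.4, 5.90 and 9.84 CPM (log2 2.91 ± 0.86, edgeR adjusted p = 0.0324), not without LT-HSC KO 2, MPP3 KO 1 or 3, or the plasma-rich libraries, nor with the 6 libraries fitted alone (edgeR adjusted p = 0.0726 to 0.101). The library highest in these markers, MPP3 KO 2, was the lowest in Mpo, Elane and Ctsg. Macrophage and dendritic cell markers gave 11.4, 46.0 and 32.2 CPM in LT-HSC KO and 23.9, 36.8 and 80.1 CPM in MPP3 KO, with overlap. Of 8 tested 1 was called (12.5%, against 13.7% of all tested genes). It was Itgax, though not with limma voom (adjusted p = 0.0591). T and NK cell markers went from 24.3, 25.6 and 19.6 CPM to 10.1, 10.4 and 9.17 CPM, where Klrb1c, the NK receptor NK1.1, was the called gene (log2 -3.47 ± 0.57, edgeR adjusted p = 0.000622) and Cd3e, Cd3d, Cd3g, Cd8a and Ncr1 were too low to be tested. Stroma and endothelium markers went from 64.4, 70.1 and 68.6 CPM to 13.6, 11.8 and 6.32 CPM, with Kdr, the VEGF receptor, at 36.0, 36.1 and 28.9 CPM in LT-HSC KO and 0.104, 2.21 and 2.58 CPM in MPP3 KO (log2 -4.37 ± 0.999, edgeR adjusted p = 0.00766). What part other cells have in the changes of the granule, basophil, lymphoid and stem cell lists was not tested.

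**Figure D5:**
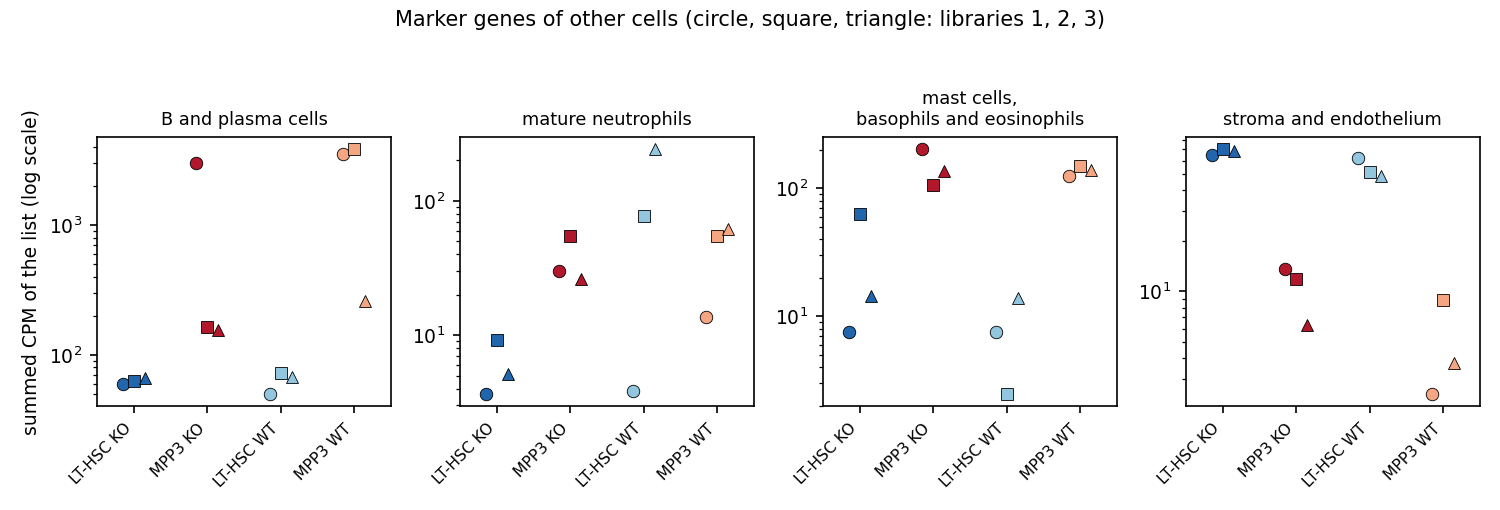
Summed CPM of 4 marker lists (log scale) in each library of the KO and WT groups; circles, squares and triangles are libraries 1, 2 and 3. Plasma cell markers are high in MPP3 KO 1 and in MPP3 WT 1 and 2, neutrophil markers in LT-HSC WT 2 and 3, and markers of mast cells, basophils and eosinophils in all MPP3 libraries.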

How the data were processed

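Poly(A) RNA of 10000 to 40000 sorted cells per library was amplified from 1000 pg with SMART-Seq v4, and 600 pg of cDNA was tagmented with Nextera XT, with 12 PCR cycles at each stage, per the labels' protocols. The deposited table holds the authors' raw read counts per gene, their normalized counts (18 per-sample columns not used here) and a normalized signal per kb of transcript, per the file headers. Bases were called with bcl2fastq 2.17.1.14, DESeq was used and the build was mm10, per the submitters' processing notes; for the aligner, counter and strand nothing is stated in the sources at hand.

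The counts of all 18 libraries were fitted with edgeR 4.0.16 (R 4.3.3): filterByExpr kept 16325 of 29437 genes, TMM scaling, 1 mean per group, the quasi-likelihood test and Benjamini-Hochberg adjustment at 0.05. The signal per kb deposited by the authors served for ranks between genes. Alternatives used DESeq2 1.42.0 and limma 3.58.1 (voom, mouse as a random block); figures were drawn with matplotlib 3.10.9. The fit was also run on simulated counts, which had less spread between libraries than these data and no shared mouse or number. That run does not measure the error rate of the fit in these data. Of IDs that share a symbol, the one with most reads kept it.

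Same-numbered LT-HSC and MPP3 libraries deviated together from their group means over 10622 genes (r of 0.198 to 0.289 in the 3 KO pairs and 0.135 to 0.207 in the 3 WT pairs, all above 0.1). The numbers in the titles were therefore taken as pairs in the alternatives with a block, and the main fit left them out. Whether a shared mouse or a shared preparation gave these r was not tested. Named genes were Ikzf2, Wdfy1, Dock10 and the gate genes, and the 12 called rises and 12 called falls of largest log2 fold change whose higher group averaged 5 CPM or more and whose groups did not overlap, without predicted, clone-named, immunoglobulin and T cell receptor genes. Up to 4 called members per list of largest change (or, with none called, up to 2 of smallest p) and the 5 genes of smallest p for a difference of the steps, by the same leave-outs, were added; other list members are named as examples chosen after their values were seen. The members and lists were chosen with earlier results of these data known. A floor of 3 reads over a group stands for 0 reads; reads carry no molecular identifiers, so floors and intervals cover counting error only. The p-values rest on 3 libraries per group, taken as 3 mice per genotype, and an exact permutation test of 3 against 3 could not go below 0.1.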

Additional observations from a re-analysis of the deposited data

How the results depend on the processing

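Over 23 alternatives the KO calls kept numbered 53.8% to 99.1% of the 2231, all with the same sign. With the mouse as a replicate block 1621 genes rose and 1468 fell, no named call was lost and Kit passed. With the number as the block, shared by both genotypes, 1518 rose and 1391 fell. With only the libraries numbered 2 and 3, 753 rose and 885 fell. Leaving out 1 library gave 640 to 1203 higher and 708 to 1167 lower genes in KO, the fewest higher without LT-HSC KO 2 and the fewest lower without MPP3 KO 3, and 919 to 1612 higher and 690 to 1303 lower in WT, the fewest without MPP3 WT 3. With limma voom 1828 genes fell in KO and 1945 in WT. DESeq2 called 3 genes with a more positive and 1 with a more negative step in KO, Dock10, Arl11, Gpr141 and Nlrp6, against 0 with edgeR. The next settings were chosen after seeing the data. Without the 3 plasma-rich MPP3 libraries 596 genes rose and 663 fell in KO, and 749 and 472 in WT, where MPP3 WT 3 was then alone in its group. Without the 2 neutrophil-rich LT-HSC WT libraries 963 rose and 814 fell in WT, and 1 step was more positive and 17 more negative in KO, with LT-HSC WT 1 alone in its group. A lone library was taken to vary like the other groups. Leaving out 1 library gave Tmem108 -0.36 (without MPP3 KO 2) to 0.97, and Siglech 0.00 (without MPP3 KO 3, where no reads remained) to 6.51; neither was called, and both have few reads. Why calls changed between the settings was not tested. The counts allow no statement on genes under the floor of 0.0384 CPM in LT-HSC KO or 0.0366 CPM in MPP3 KO.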
